A study of Mus musculus with 6 samples.

Results

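The genes described here are the NRF2, glutathione and NADPH antioxidant genes of mouse alveolar macrophages, the resident phagocytes of the air spaces of the lung. They are 37 named genes out of 23282 rows of the count table, taken by symbol: the regulators Nfe2l2 and Keap1, the glutathione and thioredoxin systems, peroxiredoxins, glutathione peroxidases, catalase, dismutases and enzymes of the pentose phosphate pathway. Of the 37, 34 had enough counts to be tested in a table of 9963 tested genes, and the other members were Nqo1, Osgin1 and Prdx4.

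The study compared 3 libraries from Sdha-KO mice, in which a floxed Sdha allele is recombined by LysM-Cre, with 3 libraries from wildtype (WT) mice. Its product, the FAD-binding subunit, oxidises succinate in succinate dehydrogenase, which is both a tricarboxylic acid cycle enzyme and respiratory complex II. LysM-Cre is expressed from the lysozyme M locus, so that recombination also takes place in other myeloid cells, such as neutrophils and monocytes. The cells came from a flow sort for CD45, SiglecF, F4/80 and CD11c without CD11b, and each library is labelled with batch 1, 2 or 3, 1 of each genotype per batch. The labels give no age, sex, strain or Cre and flox status for the WT mice, and they do not say how many animals stand behind a library.

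NRF2, encoded by Nfe2l2, is a basic leucine zipper transcription factor that KEAP1, the adaptor of a cullin 3 ubiquitin ligase, normally marks for degradation. Oxidants and electrophiles modify cysteines of KEAP1, NRF2 then accumulates and binds antioxidant response elements together with small MAF proteins, and it raises transcription of genes for glutathione synthesis, thiol reduction, detoxification and NADPH supply. Because this control acts mainly on the protein, the Nfe2l2 transcript is no measure of NRF2 activity.

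The core of the antioxidant response element was searched as TGACNNNGC, on both strands, in RefSeq promoters (GRCm38.p6) of 250 bases before to 50 bases after each transcript start, a table that matched 33 of the 37 members. It was found in 9 of these 33 members (27.3%), against 1322 of 7616 tested genes with a promoter (17.4%), and in 9 of 42 member promoters (21.4%), against 4071 of 32851 promoters in all (12.4%). Each match is printed in the strand that reads as the core, with the core in capitals and flanks in lower case, because it is a stretch often used to recognise NRF2 targets.
Srxn1: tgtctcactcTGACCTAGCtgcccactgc
Prdx1: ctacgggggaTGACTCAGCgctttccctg
Mgst1: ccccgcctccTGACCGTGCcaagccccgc
Pgd: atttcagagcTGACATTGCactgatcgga
Txnrd1: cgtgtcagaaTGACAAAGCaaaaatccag
Gclm: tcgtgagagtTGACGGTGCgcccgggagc
Sod1: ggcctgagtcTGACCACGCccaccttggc
G6pdx: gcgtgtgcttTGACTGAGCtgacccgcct
Nfe2l2: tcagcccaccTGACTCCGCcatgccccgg
The core in Prdx1 lay 133 to 125 bases before the start (window chr4:116685456-116685484, minus strand), and its letters TGACTCAGC also fit the binding site of AP-1 factors, TGACTCA. In Srxn1 it lay 28 to 36 bases after the start (window chr2:152105542-152105570, minus strand), and in Mgst1 56 to 48 bases before it (window chr6:138140461-138140489, minus strand). Pgd, Mgst1 and Txnrd1 had several promoter windows, and not all of them held the core. In Pgd it stood in the window chr4:149166033-149166332, which lies inside the gene (149149991 to 149166771). The Pgd window that spans the start of the gene held none. A match describes the letters of the window and is not a measured binding site, and elements outside the window were not searched. Stretches that depart from TGACNNNGC, such as TGAGTCAGC, were not searched either. The windows of Gstp1 and Srxn1 held TGAGTCAGC, and that of Osgin1 held it on the opposite strand. A window without a match is therefore not shown to lack an element.

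The libraries held 8472907, 5400160 and 7269525 counts in Sdha-KO replicates 1 to 3 and 8239600, 5813531 and 8032959 counts in WT replicates 1 to 3. All levels are CPM, that is counts scaled to library size with TMM factors, and are given in the order of replicates 1 to 3. The kit reads transcript 3' ends, so a level does not depend on transcript length. The batch 1 libraries stood apart, with 5438 genes detected in Sdha-KO replicate 1, against 7893 in WT replicate 1 and 11383 to 13050 in the other 4 libraries. Of 3447 abundant genes, 612 had no count in Sdha-KO replicate 1 and 136 had none in WT replicate 1. Among members, 10 of 37 were at 0 in Sdha-KO replicate 1 and 4 of 37 in WT replicate 1. Txn2 and Prdx2 had at least 100 counts in each of the 4 libraries of batches 2 and 3 and none in Sdha-KO replicate 1. Values are therefore given with batch 1 and without it. A count of 0 allowed up to 0.250 to 0.666 CPM, depending on the library, and covers counting error only. Counts of the X-inactivation transcript Xist and the Y-linked gene Ddx3y were both present in 3 of the 6 libraries, and the mix differed with genotype. Xist had 2683, 498 and 822 counts in Sdha-KO libraries and 0, 4608 and 6055 counts in WT libraries. Ddx3y had 0, 354 and 432 counts in Sdha-KO libraries and 222, 0 and 143 counts in WT libraries. Within batch 1, the Sdha-KO library thus held Xist alone and the WT library Ddx3y alone. The part of sex in the results was not tested.

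Sdha, the targeted gene, had 26.1, 21.0 and 22.8 CPM in Sdha-KO libraries, against 56.0, 65.5 and 72.2 CPM in WT libraries. Every Sdha-KO library lay below every WT library. The log2 fold change was -1.47 (SE 0.818) with an edgeR adjusted p of 1.00, and -1.64 with an adjusted p of 0.0327 when batch 1 was left out and the batches were kept as a block. Reads from the transcript's 3' end need not lie in the deleted exons, so this level checks the labels only in part.

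Across the antioxidant genes, levels were higher in every Sdha-KO than in every WT library for the NRF2 target Srxn1, the esterase Esd, the glutathione transferase genes Gstm1, Mgst1 and Mgst2, the glutaredoxin Glrx and the mitochondrial dismutase Sod2. For these 7, fold changes between the genotypes ran from 1.5 for Sod2 to 9.55 for Mgst2. No member passed an adjusted p of 0.05 in edgeR's quasi-likelihood test over 6 libraries, where 5 of 9963 genes passed (0.0502%). With the batches as a block, 0 of 9963 genes passed. At an unadjusted p under 0.05 there were 3 of 34 members (8.82%: Esd, Gstm1 and Srxn1), against 263 of all tested genes (2.64%). DESeq2 called 0 of 34 members, where 21 of 9963 genes were called (0.211%).

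Non-overlapping groups with Sdha-KO above WT were found in 7 of 34 tested members (20.6%), against 502 of 9963 genes (5.04%), and with Sdha-KO below WT in 0 of 34, against 924 of 9963 (9.27%). Within batches, 9 of 34 members (26.5%) were higher in the Sdha-KO library in 3 of 3 batches, against 1134 of 9963 genes (11.4%). They were the 7 above, for which this follows from their separation, and Prdx1 and Pgd. Log2 fold changes were positive in 22 of 34 members (64.7%) and in 4483 of all tested genes (45.0%). Their median was 0.41 for the members and -0.13 for all tested genes. With the batches as a block, the medians were -0.05 for the members and -0.48 for all genes. These counts cover the members that passed the filter on low counts and are a description.

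**Figure D1:**
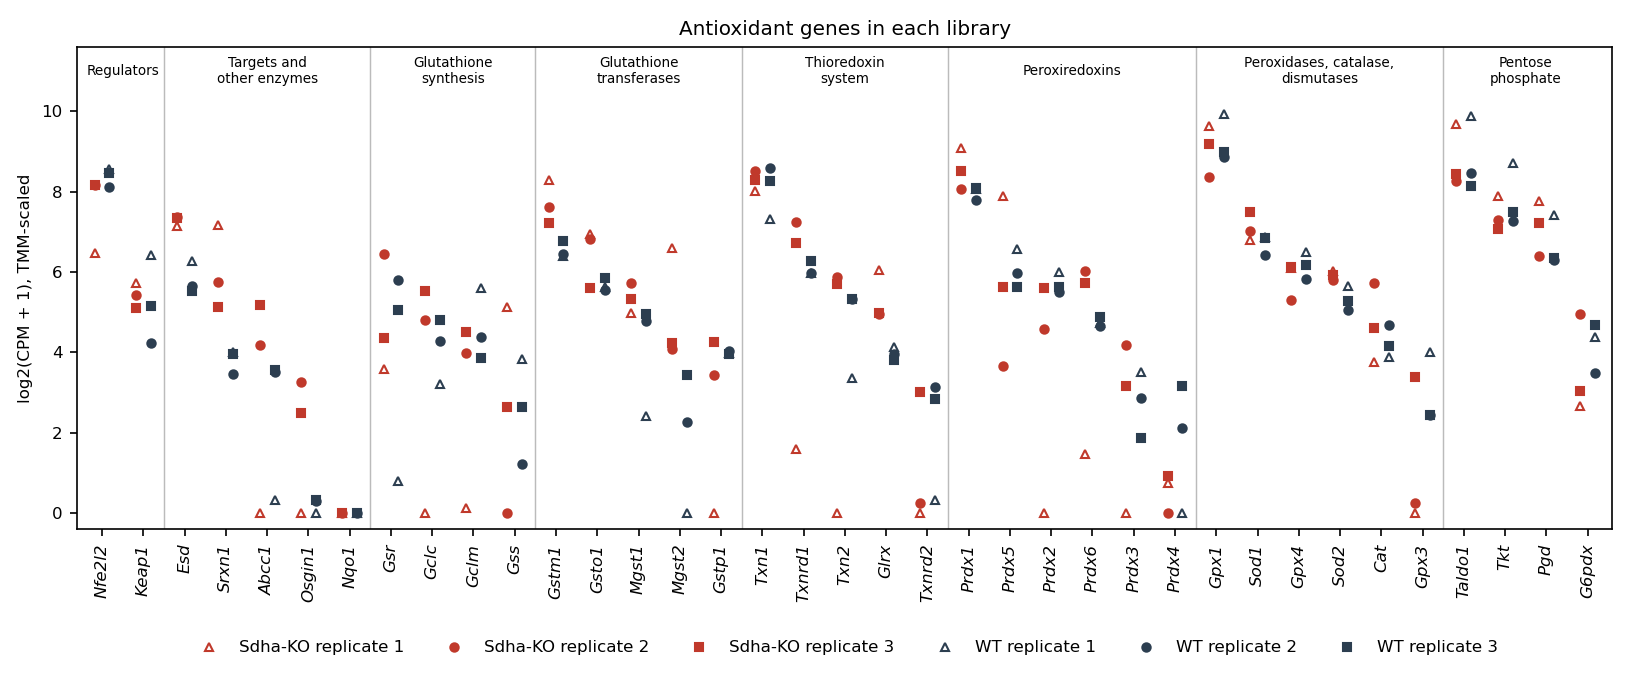
TMM-scaled level, as log2(CPM + 1), of the antioxidant genes in each library, with Sdha-KO libraries left of WT libraries for each gene, marker shapes for replicates and open markers for batch 1. Srxn1, Esd, Gstm1 and Glrx sit higher in every Sdha-KO library, and Sdha-KO replicate 1 has many members at 0.

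**Figure D2:**
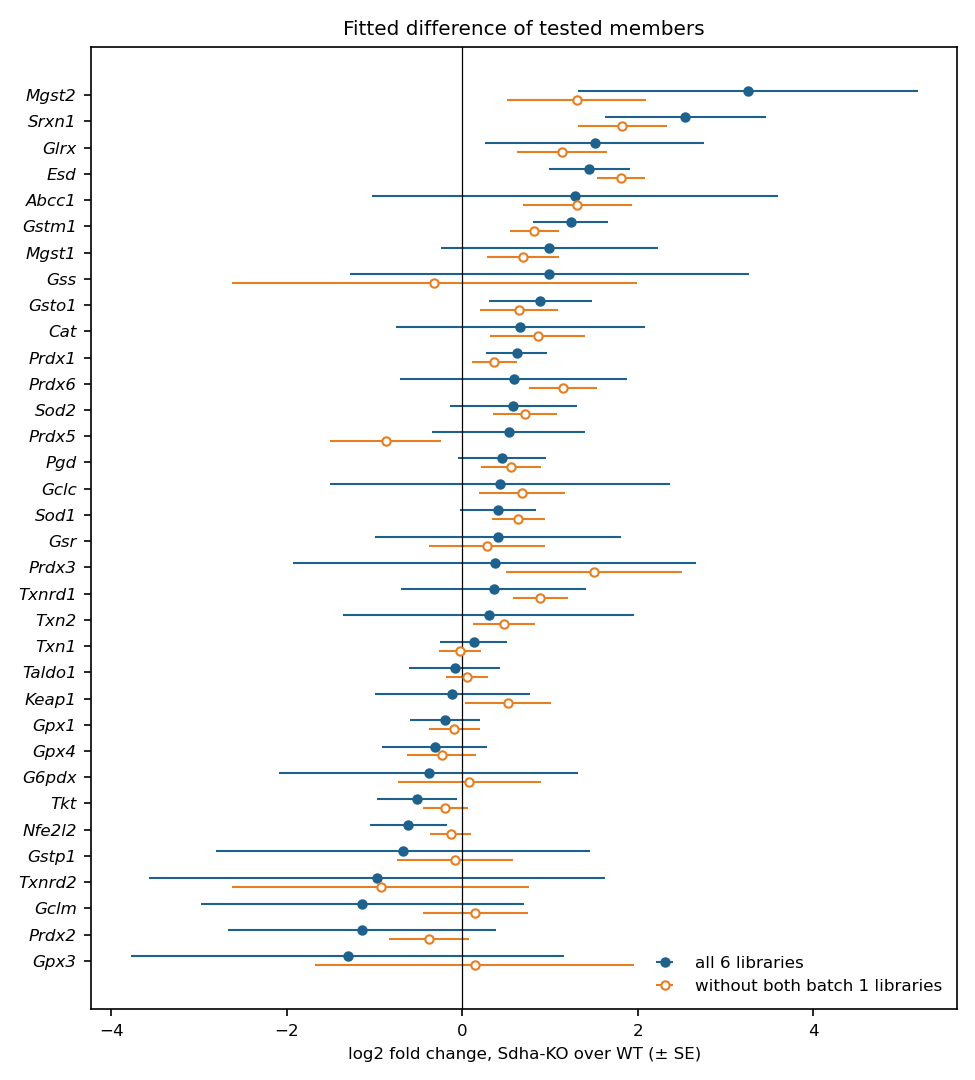
Fitted log2 fold change, Sdha-KO over WT, of the 34 tested members with the SE (bars) from edgeR's quasi-likelihood fit, over 6 libraries (filled blue) and without both batch 1 libraries (open orange). Over 6 libraries the values run from -1.31 for Gpx3 to 3.26 for Mgst2, and the widest of those bars is that of Txnrd2 (SE 2.6).

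**Figure D3:**
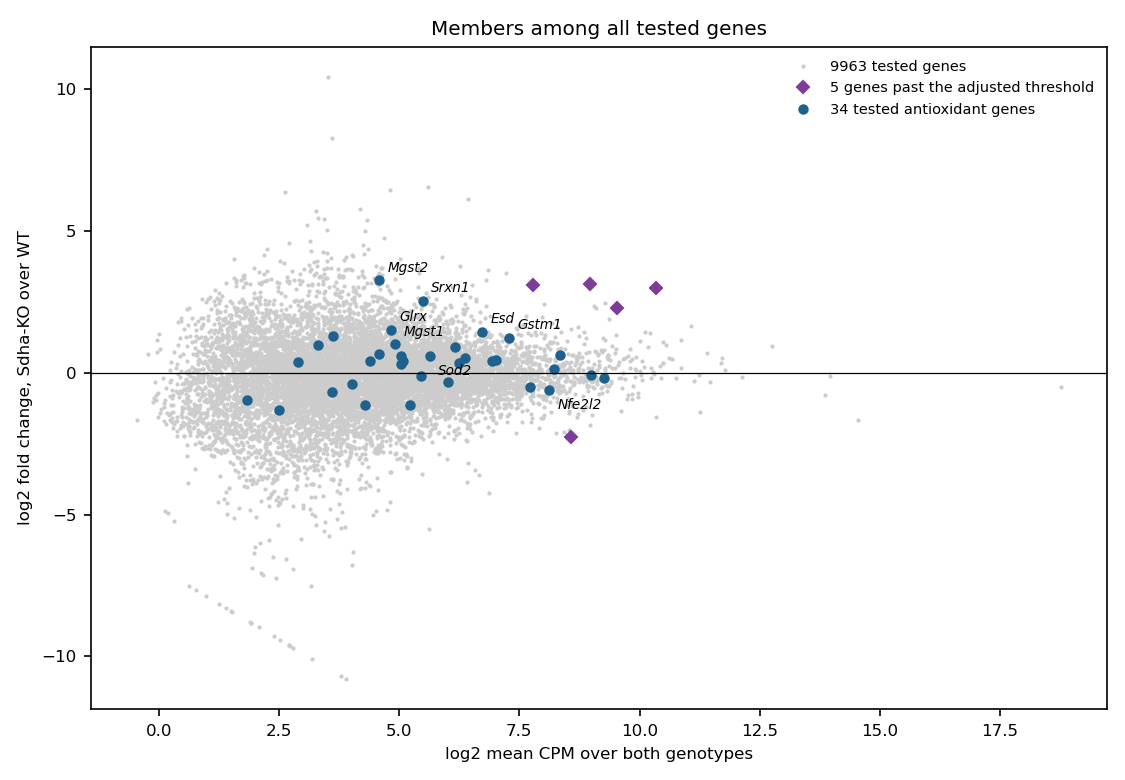
Log2 fold change, Sdha-KO over WT, against log2 mean CPM for all 9963 tested genes, with the members marked. Of the 34 members, 22 lie above 0.

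The regulators did not separate the genotypes. Nfe2l2 (chromosome 2, 75675513 to 75704641, mm10) had 87.8, 284 and 288 CPM in Sdha-KO libraries, against 378, 277 and 352 CPM in WT libraries, and the groups overlapped. Means were 220 ± 114 and 336 ± 52.3 CPM (SD, n = 3 each), and the log2 fold change was -0.61 (SE 0.441, edgeR adjusted p = 1.00). Without batch 1 it was -0.13 (SE 0.234), so the lower mean rested on batch 1. Keap1 (chromosome 9, 21229730 to 21239361) had 51.9, 41.7 and 33.2 CPM in Sdha-KO libraries, against 84.7, 17.8 and 34.6 CPM in WT libraries. Its log2 fold change was -0.11 (SE 0.885, edgeR adjusted p = 1.00), and 0.52 without batch 1. Keap1 shares 510 exonic bases with an antisense transcript, Gm16754. Nfe2l2 was the more abundant regulator in 6 of 6 libraries.

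Esd, Srxn1, Abcc1, Osgin1 and Nqo1 were grouped as NRF2 targets and other enzymes. Their sum was 283, 242 and 236 CPM in Sdha-KO libraries, against 91.9, 69.9 and 70.3 CPM in WT libraries. Esd and Srxn1 made up most of that sum, and the promoter window of Esd held no core motif. The group is mixed, so its sum is no measure of NRF2 activity. Esd encodes S-formylglutathione hydrolase (esterase D) and lies on chromosome 14, 74732297 to 74750765. It had 140, 164 and 162 CPM (mean 155 ± 13.4, SD, n = 3) in Sdha-KO libraries, against 76.7, 49.3 and 44.7 CPM (mean 56.9 ± 17.3) in WT libraries. All Sdha-KO libraries lay above all WT libraries, with ratios of 1.83, 3.33 and 3.64 in batches 1 to 3. The log2 fold change was 1.45 (SE 0.462, fold 2.73) with an unadjusted p of 0.00852 and an adjusted p of 1.00 in edgeR's test. Without batch 1 it was 1.81 (SE 0.275, fold 3.50) with an edgeR adjusted p of 0.059, and with the batches as a block as well the adjusted p was 0.00044; over all 19 alternatives it ran from 0.00044 to 1.00.

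Srxn1 encodes sulfiredoxin, which reduces hyperoxidised typical 2-Cys peroxiredoxins such as Prdx1, and lies on chromosome 2, 152105516 to 152111376. It had 143, 52.6 and 34 CPM in Sdha-KO libraries, against 15.0, 9.99 and 14.5 CPM in WT libraries. The lowest Sdha-KO library was above the highest WT library, and the highest was Sdha-KO replicate 1. Means were 76.7 ± 58.6 and 13.2 ± 2.75 CPM (SD, n = 3 each), and the log2 fold change was 2.54 (SE 0.917, fold 5.82; edgeR unadjusted p = 0.0168, adjusted p = 1.00). Without batch 1 the log2 fold change was 1.83, with an edgeR adjusted p of 0.273. The within-batch ratios were 9.59, 5.27 and 2.34.

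Osgin1, an NRF2 target of which overexpression inhibits growth, had too few counts to be tested over 6 libraries. It had 0, 46 and 31 counts in Sdha-KO libraries, against 0, 1 and 2 counts in WT libraries. Its summed counts of 77 and 3 gave a ratio of 21.9 between the pooled levels, with a 95% exact interval of 7.21 to 108 that covers counting error only. Both batch 1 libraries were at 0 for this gene. Without batch 1 it was tested, with a log2 fold change of 4.68 (SE 2.05, edgeR adjusted p = 0.499). Nqo1, the quinone reductase that is a classic NRF2 target, had 0 counts in all 6 libraries. The efflux transporter Abcc1 had 0, 17.3 and 35.2 CPM in Sdha-KO libraries and 0.245, 10.4 and 10.8 CPM in WT libraries, and the groups overlapped.

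The 4 genes of glutathione synthesis and recycling had overlapping groups. They encode the catalytic and modifier subunits of glutamate-cysteine ligase (Gclc and Gclm), glutathione synthetase (Gss) and glutathione reductase (Gsr). Gclc had 0, 26.8 and 45.2 CPM in Sdha-KO libraries and 8.21, 18.4 and 26.7 CPM in WT libraries. Gclm had 0.0834, 14.9 and 21.9 CPM in Sdha-KO libraries and 47.7, 20.0 and 13.5 CPM in WT libraries. Batch 1 held the lowest Sdha-KO value and the highest WT value of Gclm. Gsr (chromosome 8, 33652523 to 33698163), the most abundant of the 4, had 11, 85.9 and 19.4 CPM in Sdha-KO libraries and 0.735, 54.6 and 32.3 CPM in WT libraries, with a log2 fold change of 0.41 (SE 1.41, edgeR adjusted p = 1.00). Gss had 34.2, 0 and 5.22 CPM in Sdha-KO libraries and 13.2, 1.33 and 5.22 CPM in WT libraries. Gclm and Gss share exonic bases with other genes, among them Acss2 for Gss, which had at most 1 count in any library.

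The 5 glutathione transferase genes, whose products conjugate glutathione to electrophiles or reduce lipid hydroperoxides, summed to 562, 383 and 270 CPM in Sdha-KO libraries, against 151, 178 and 218 CPM in WT libraries. Gstm1 (chromosome 3, 108012255 to 108017973) had 313, 194 and 148 CPM in Sdha-KO libraries, against 83.3, 87.0 and 107 CPM in WT libraries, and the groups did not overlap. The means were 218 ± 85.4 and 92.6 ± 13 CPM (SD, n = 3 each), and the log2 fold change was 1.24 (SE 0.424, fold 2.36; edgeR unadjusted p = 0.0128, adjusted p = 1.00). Without batch 1 it was 0.82, with an adjusted p of 0.394 in edgeR. The within-batch ratios were 3.76, 2.23 and 1.38. Gstm1 has close paralogs in its gene cluster, so reads that match several of them make its counts uncertain.

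Mgst1 and Mgst2 encode microsomal glutathione transferases, and Mgst2 can also form leukotriene C4. Mgst1 (chromosome 6, 138140316 to 138156755) had 30.4, 51.9 and 38.9 CPM in Sdha-KO libraries, against 4.29, 26.4 and 30.0 CPM in WT libraries, so that the nearest libraries of the groups, at 30.4 and 30.0 CPM, barely differed. The log2 fold change was 1.00 (SE 1.24, edgeR adjusted p = 1.00). Mgst2 (chromosome 3, 51660360 to 51682677) had 96.5, 15.8 and 17.7 CPM in Sdha-KO libraries, against 0, 3.77 and 9.80 CPM in WT libraries. Its log2 fold change of 3.26 (SE 1.94, edgeR adjusted p = 1.00) was 1.31 without batch 1, where 1157 counts in the Sdha-KO library stood against 0 in the WT library. Gsto1 had 121, 112 and 47.4 CPM in Sdha-KO libraries and 48.6, 45.9 and 56.5 CPM in WT libraries, and Gstp1 had 0, 9.86 and 18.2 CPM in Sdha-KO libraries and 14.7, 15.3 and 14.6 CPM in WT libraries. The groups of both genes overlapped.

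In the thioredoxin system, Txn1, cytosolic thioredoxin, was the most abundant member in 6 of 6 libraries. Txn1 (chromosome 4, 57943373 to 57956411) had 256, 362 and 312 CPM in Sdha-KO libraries and 157, 382 and 309 CPM in WT libraries, with a log2 fold change of 0.13 (SE 0.381, edgeR adjusted p = 1.00). Its reductase Txnrd1 had 2.00, 150 and 105 CPM in Sdha-KO libraries, against 61.6, 62.1 and 76.0 CPM in WT libraries. The log2 fold change of Txnrd1 was 0.36 over 6 libraries (SE 1.06, edgeR adjusted p = 1.00), -0.57 with the batches as a block, and 0.89 without batch 1 (edgeR adjusted p = 0.397), so its sign depended on the fit. Glrx (chromosome 13, 75839868 to 75850154), the glutaredoxin that removes glutathione from protein thiols, had 65.3, 30.1 and 30.7 CPM in Sdha-KO libraries, against 16.4, 14.6 and 13.1 CPM in WT libraries. The groups of Glrx did not overlap, and its log2 fold change was 1.51 (SE 1.25, fold 2.85, edgeR adjusted p = 1.00), and 1.14 without batch 1. Mitochondrial Txn2 had 0, 57.6 and 51.0 CPM in Sdha-KO libraries and 9.19, 39.3 and 39.5 CPM in WT libraries, and Txnrd2 stayed below 8 CPM in every library.

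Prdx1 was the most abundant of the 6 peroxiredoxins, a family of thiol peroxidases, in 6 of 6 libraries. Prdx1 (chromosome 4, 116685544 to 116700822) had 543, 268 and 366 CPM in Sdha-KO libraries, against 269, 222 and 274 CPM in WT libraries. Sdha-KO replicate 2 lay below the highest WT library, so the groups overlapped, but the ratio was above 1 in each batch, at 2.02, 1.21 and 1.34. The log2 fold change was 0.62 (SE 0.351, edgeR adjusted p = 1.00). Prdx6, whose product also has phospholipase activity, had 1.75, 64.0 and 52.0 CPM in Sdha-KO libraries, against 25.6, 24.2 and 28.4 CPM in WT libraries, and the groups overlapped. Its log2 fold change was 0.59 over 6 libraries (SE 1.29, edgeR adjusted p = 1.00), -0.19 with the batches as a block, and 1.15 without batch 1 (edgeR adjusted p = 0.387). Prdx3, the mitochondrial form, had 0, 17.1 and 7.90 CPM in Sdha-KO libraries and 10.4, 6.21 and 2.67 CPM in WT libraries.

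Prdx5 and Prdx2 did not follow Prdx1. Prdx5 had 235, 11.5 and 48.1 CPM in Sdha-KO libraries and 93.7, 61.9 and 48.5 CPM in WT libraries, so that its Sdha-KO value was above WT in batch 1 alone. Prdx2 had 0, 23.1 and 47.4 CPM in Sdha-KO libraries and 62.9, 44.2 and 48.4 CPM in WT libraries. Its last 500 bases share 173 exonic bases with Junb on the opposite strand, which had 13854, 4558 and 4728 counts in Sdha-KO libraries and 4324, 1670 and 3980 counts in WT libraries. Whether the counting used strand is not given in the sources used here, so Prdx2 is uncertain. Prdx4, the secretory pathway form, fell short of the filter over 6 libraries. It had 8, 0 and 6 counts in Sdha-KO libraries and 0, 15 and 63 counts in WT libraries. Its pooled level was 6.54 times higher in WT (95% exact interval 3.67 to 12.5, counting error only). WT replicate 3 held 63 of the 78 WT counts, and without it the ratio was 2.04 (0.916 to 4.55). Without batch 1, Prdx4 was tested, with a log2 fold change of -3.57 (SE 2.30, edgeR adjusted p = 0.698).

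Gpx1, the main cytosolic glutathione peroxidase, had the highest mean level of all members. Gpx1 (chromosome 9, 108338903 to 108340343) had 799, 329 and 585 CPM in Sdha-KO libraries and 983, 468 and 510 CPM in WT libraries, with a log2 fold change of -0.20 (SE 0.395, edgeR adjusted p = 1.00). Gpx4, which reduces membrane lipid hydroperoxides, had 67.0, 38.1 and 69.0 CPM in Sdha-KO libraries and 89.2, 56.1 and 70.9 CPM in WT libraries. It was lower in the Sdha-KO library of each batch, though the groups overlapped. Catalase (Cat) had 12.6, 51.7 and 23.5 CPM in Sdha-KO libraries and 13.7, 24.9 and 16.9 CPM in WT libraries, and the secreted Gpx3 had 0, 0.186 and 9.54 CPM in Sdha-KO libraries and 15.2, 4.44 and 4.46 CPM in WT libraries.

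The superoxide dismutases are the cytosolic copper-zinc enzyme Sod1 and the mitochondrial manganese enzyme Sod2. Sod2 (chromosome 17, 13006846 to 13040063) had 64.4, 54.7 and 59.3 CPM in Sdha-KO libraries, against 49.4, 32.2 and 37.7 CPM in WT libraries. The groups did not overlap, with means of 59.5 ± 4.88 and 39.7 ± 8.79 CPM (SD, n = 3 each) and a log2 fold change of 0.58 (SE 0.723, edgeR adjusted p = 1.00). Sod1 had 109, 129 and 179 CPM in Sdha-KO libraries and 115, 84.3 and 115 CPM in WT libraries, and exceeded Sod2 in 6 of 6 libraries. Sod2 is also a known target of NF-kB.

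The pentose phosphate pathway supplies NADPH to glutathione reductase and thioredoxin reductase. Its 4 members summed to 1284, 577 and 635 CPM in Sdha-KO libraries and 1543, 594 and 565 CPM in WT libraries, so that batch 1 libraries of both genotypes stood highest. Taldo1, transaldolase (chromosome 7, 141392199 to 141402968), had 827, 308 and 347 CPM in Sdha-KO libraries and 936, 354 and 281 CPM in WT libraries, with a log2 fold change of -0.08 (SE 0.520, edgeR adjusted p = 1.00). Tkt, transketolase, had 235, 155 and 132 CPM in Sdha-KO libraries and 418, 152 and 178 CPM in WT libraries. Pgd, which makes NADPH from 6-phosphogluconate, had 216, 83.7 and 149 CPM in Sdha-KO libraries and 169, 77.9 and 81.0 CPM in WT libraries, higher in the Sdha-KO library of each batch. The X-linked G6pdx, the first enzyme of the pathway, had 5.34, 29.8 and 7.15 CPM in Sdha-KO libraries and 20.0, 10.2 and 24.8 CPM in WT libraries, and shares 418 exonic bases with Ikbkg.

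All 37 members together summed to 4469, 3242 and 3507 CPM in Sdha-KO libraries and 4290, 2768 and 2926 CPM in WT libraries, with means of 3739 ± 646 and 3328 ± 837 CPM (SD, n = 3 each), and the groups overlapped. Gpx1, Taldo1, Prdx1, Txn1 and Nfe2l2 had the highest mean levels in that order, and neighbours in the order did not differ beyond their spread. In bulk samples, fewer cells of a type and less RNA per cell cannot be told apart.

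Without batch 1, 36 members were tested among 10757 genes. Both Sdha-KO libraries lay above both WT libraries in 16 of the 36 (44.4%), against 2160 of all genes (20.1%). The 7 named above had to be among these 16, since their groups were already apart over 6 libraries. The others were Prdx6, Txnrd1, Txn2, Abcc1, Sod1, Prdx3, Pgd, Osgin1 and Gclc. Both Sdha-KO libraries lay below both WT libraries in 2 of 36 (5.56%), Prdx5 and Prdx4, against 2565 genes (23.8%). Osgin1 and Prdx4 were not tested over 6 libraries. They passed the filter here through the genotype where they were high, so the filter nearly fixed their side. edgeR called 0 of 36 members, where 27 genes were called in all (0.251%). With the batches as a block it called Esd, 1 of 36 (2.78%), where 324 genes were called in all (3.01%), a share near the background. In limma-voom with sample quality weights over 6 libraries, Esd was called (adjusted p = 0.0213, log2 fold change 1.80), 1 of 34 members (2.94%), where 45 of 9963 genes were called (0.452%).

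**Figure D4:**
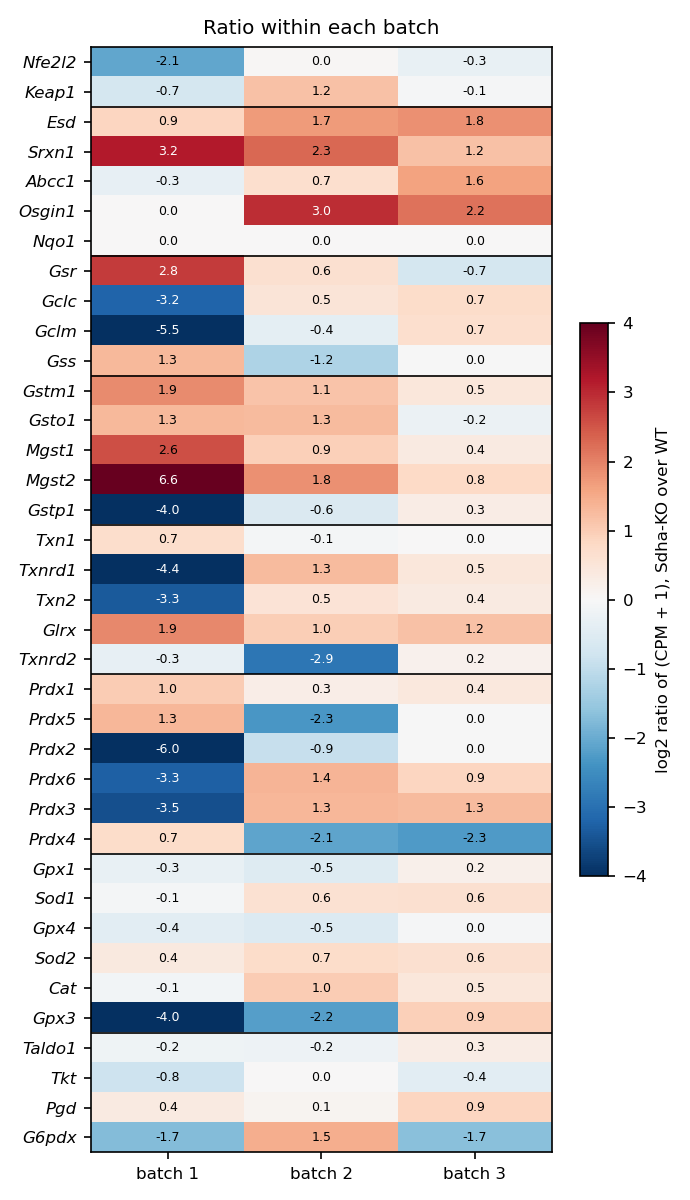
Log2 ratio of (CPM + 1), Sdha-KO over WT, of each member within batches 1, 2 and 3 (columns). Esd, Srxn1, Gstm1, Glrx, Sod2, Mgst1, Mgst2, Prdx1 and Pgd are above 0 in each batch, and Sod1, Cat, Prdx6 and Txnrd1 are below 0 in batch 1 and above 0 in batches 2 and 3.

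The core motif stood in 4 of the 9 members higher in 3 of 3 batches (Srxn1, Prdx1, Mgst1 and Pgd) and in 5 of the other 24 members with a promoter. The Pgd match lay in a window inside the gene and not in the window that spans its start. The windows of Esd, Gstm1, Glrx, Sod2 and Mgst2 held none.

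Other genes of the same pathways, 103 in lists of further NRF2 targets, partners of NRF2, NADPH sources, glutathione and cysteine genes, peroxidases, thiol redox genes and superoxide sources, gave 67 tested genes. edgeR called 0 of the 67, with 32 positive and 35 negative log2 fold changes and a median of -0.05. At an unadjusted p under 0.05 in edgeR there were 5 of 67, against 263 of 9963 tested genes (2.64%). Groups did not overlap in 8 of 67 with Sdha-KO above WT, against 502 of 9963 (5.04%). With Sdha-KO below WT they were apart in 4 of 67, against 924 of 9963 (9.27%). The further NRF2 targets had 6 positive of 14 tested, the partners 6 of 9, NADPH sources 5 of 12, glutathione and cysteine genes 3 of 6, peroxidases and transferases 3 of 5, thiol redox genes 7 of 14 and superoxide sources 2 of 7.

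Mthfd2, the mitochondrial folate enzyme that can supply NADH or NADPH, had 132, 110 and 93.0 CPM in Sdha-KO libraries, against 20.1, 20.0 and 23.2 CPM in WT libraries (log2 fold change 2.40, SE 0.599, edgeR adjusted p = 0.677). The ferritin light chain gene Ftl1 had 2569, 1575 and 1765 CPM in Sdha-KO libraries, against 1042, 854 and 863 CPM in WT libraries (log2 fold change 1.10, edgeR adjusted p = 0.729). The scavenger receptor gene Cd36 had 126, 238 and 297 CPM in Sdha-KO libraries, against 523, 343 and 351 CPM in WT libraries (log2 fold change -0.88, edgeR adjusted p = 1.00). Groups of these 3 genes did not overlap. Pgls, the lactonase of the pentose phosphate pathway, had 84.8, 72.2 and 170 CPM in Sdha-KO libraries and 296, 110 and 144 CPM in WT libraries (log2 fold change -0.75, edgeR adjusted p = 1.00), with overlapping groups. Sqstm1, chosen after its values were seen, encodes p62, which can hold KEAP1 away from NRF2. It had 374, 445 and 467 CPM in Sdha-KO libraries, against 89.5, 203 and 250 CPM in WT libraries. The log2 fold change was 1.25 (edgeR unadjusted p = 0.00898, adjusted p = 0.9998). Sqstm1 shares 580 exonic bases with Mrnip on the opposite strand, 330 of them in its last 500 bases. Strand use in the counting is not given, so Sqstm1 is uncertain, as is Prdx2. Hmox1, heme oxygenase 1, also chosen after its values were seen, had 115, 25.8 and 46.4 CPM in Sdha-KO libraries and 78.6, 22.2 and 31.1 CPM in WT libraries.

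Summed markers of some other cells did not overlap between the genotypes, though edgeR called no gene of any marker list over 6 libraries. Sums of the B cell, neutrophil, eosinophil, epithelial, endothelial and stromal, and red cell lists overlapped. The sum of 12 interstitial macrophage and monocyte markers was 79.5 to 234 CPM in Sdha-KO libraries and 30.4 to 56.3 CPM in WT libraries, positive in 8 of 8 tested genes, with Folr2 at 0 in every library. In Sdha-KO replicate 1 that sum of 79.5 CPM was nearly all Ccr2, at 79.0 CPM. The sum of 9 conventional dendritic cell markers was 44.8 to 229 CPM in Sdha-KO libraries and 16.0 to 44.3 CPM in WT libraries, with 5 of 6 tested genes positive. T and NK cell markers summed to 96.9 to 197 CPM in Sdha-KO libraries and 274 to 524 CPM in WT libraries, but Cd2 made up most of that sum, at 197, 66.8 and 141 CPM in Sdha-KO libraries and 524, 258 and 368 CPM in WT libraries. Of 4 tested genes of that list 1 was positive, and Il7r had 0.0834, 24.5 and 37.9 CPM in Sdha-KO libraries and 0, 5.99 and 6.88 CPM in WT libraries. Ncr1 was at 0. The 16 alveolar macrophage markers summed to 8196 to 10548 CPM in Sdha-KO libraries and 8789 to 10340 CPM in WT libraries, so that the labelled cell type was present in both. Chil3 had the largest part, at 3507, 5385 and 4041 CPM in Sdha-KO libraries and 4252, 4509 and 5424 CPM in WT libraries. Of the 16, 7 were positive and 9 negative. At an unadjusted p under 0.05 in edgeR there were 6 of 16, against 263 of 9963 genes (2.64%). Ear2 had 306, 173 and 168 CPM in Sdha-KO libraries, against 634, 831 and 882 CPM in WT libraries. Car4 went the other way, with 935, 757 and 888 CPM in Sdha-KO libraries, against 277, 485 and 404 CPM in WT libraries. Groups did not overlap in 4 with Sdha-KO below WT (9.27% of all tested genes) and in 2 with Sdha-KO above WT (5.04% of all). Siglecf, which encodes the sorting marker SiglecF, had 0, 39.6 and 45.3 CPM in Sdha-KO libraries, against 103, 138 and 132 CPM in WT libraries. Adgre1, which encodes the sorting marker F4/80, had 0, 56.7 and 82.0 CPM in Sdha-KO libraries and 76.8, 91.2 and 70.5 CPM in WT libraries. The part of these markers in the antioxidant gene levels was not tested.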

How the data were processed

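Total RNA of sorted alveolar macrophages was made into QuantSeq 3' libraries, per the labels' protocols. The authors deposited whole-number read counts per gene symbol, 23282 rows in 6 columns. Bowtie2, bedtools and the mouse build mm10 are named in the submitters' processing notes; their versions, the annotation, the strand setting and the handling of multiply matching reads: not given in the sources used here. In the table, 7901 rows were 0 throughout and 44 symbols were repeated.

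Genes were kept by filterByExpr (minimum count 10) and tested with edgeR 4.0.16 (TMM, robust quasi-likelihood F-test, genotype alone) in R 4.3.3, with Benjamini-Hochberg adjustment over all 9963 tested genes and a threshold of 0.05. SE was derived from the log2 fold change and the F statistic. CPM were scaled by TMM factors. limma 3.58.1 and DESeq2 1.42.0 were alternatives. The steps were also run on simulated counts with less spread than these data and without the zeros of batch 1. That run does not cover these features of the data. The replicate number equals the batch in the labels, so same-numbered libraries are paired: their deviations from the group means correlated at 0.155, 0.117 and 0.126, and other pairs at -0.152 to 0.111. No 2 libraries agreed within sampling noise. The labels do not say that libraries came from separate animals. WT libraries had 0, 4608 and 6055 counts of Xist and 222, 0 and 143 counts of Ddx3y. They were thus not all repeats of the same material. How much of the spread behind each p-value is technical is not known.

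The 37 members, the pathway lists and the marker lists were chosen with earlier results of these data known. All members are named. Full statistics are given for Nfe2l2, Keap1, members with an unadjusted p under 0.05 or with groups that do not overlap, and the most abundant tested member of each role; outside the members, for the 2 pathway genes with the smallest unadjusted p in each direction. Gene coordinates come from GENCODE M21, promoters from RefSeq.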

Additional observations from a re-analysis of the deposited data

How the results depend on the processing

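Log2 fold changes of Srxn1, Esd, Gstm1, Mgst1, Mgst2, Glrx and Sod2 were positive in all 19 alternatives. Their ranges were 1.30 to 1.81 for Esd, 1.72 to 2.96 for Srxn1, 0.80 to 1.60 for Gstm1, 1.05 to 1.90 for Glrx, 1.31 to 5.06 for Mgst2, 0.51 to 1.46 for Mgst1 and 0.44 to 0.86 for Sod2. These genes were picked for their separation in the same libraries, so fits that only leave out libraries could hardly turn their sign. Prdx1 (0.32 to 0.96) and Nfe2l2 (-1.03 to -0.12) also kept their signs in all 19. The number of genes called among all tested was 5 as reported, 0 with the replicate block (296 at an unadjusted p under 0.05 in edgeR), 9 with library totals alone, 48 with no filter, 0 with a stricter filter (255 unadjusted in edgeR), 21 in DESeq2, 72 in DESeq2 with the block, 20 in limma-voom, 45 in limma-voom with quality weights, 27 with batch 1 left out and 324 with batch 1 left out and the block. Leaving out 1 library gave 0 (without WT replicate 1) to 13 (without WT replicate 3). Of the members, 1 was called in limma-voom with quality weights and 1 with batch 1 left out and the block, Esd both times. Of the other pathway genes, 1 was called with no filter (Ftl1), 1 in DESeq2 with the block (Mthfd2) and 1 in limma-voom (Ftl1). In limma-voom with quality weights 3 were called (Fth1, Mthfd2 and Ftl1). With batch 1 left out and the block 5 were called, these 3 and Sqstm1 and Txnip. Txnip had 0, 65.8 and 48.3 CPM in Sdha-KO libraries and 65.6, 215 and 112 CPM in WT libraries. The members' median log2 fold change of 0.41 was -0.049 with the replicate block, -0.048 in DESeq2 with the block and -0.078 in limma-voom, and 0.05 (without Sdha-KO replicate 2) to 0.50 (without WT replicate 1) with 1 library left out. The all-gene median of -0.13 was -0.48 with the block, -0.65 in limma-voom and 0.05 with library totals alone. Non-overlapping members with Sdha-KO above WT numbered 16 with batch 1 left out and 7 to 14 with 1 library left out. The 7 reported stay among them by construction. The 14, without Sdha-KO replicate 1, stood beside 15.4% of all genes. Non-overlapping members with Sdha-KO below WT numbered 0 as reported, 2 with batch 1 left out and up to 4 (without Sdha-KO replicate 3, beside 17.5% of all genes). With batch 1 left out, the counts include Osgin1 (above) and Prdx4 (below), which passed the filter through the genotype where they were high. Sdha was called only with batch 1 left out and the block, at -1.64.

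Of the 34 tested members, 18 turned sign under at least 1 alternative and 16 did not (11 positive, 5 negative). Among the 14 members given with full statistics, 5 turned. Keap1 was at 0.14 with the replicate block, 0.15 with library totals alone, 0.14 in DESeq2 with the block, 0.42 in limma-voom with quality weights, 0.52 with batch 1 left out and 0.59 with the block as well, and -0.50 to 0.68 with 1 library left out. Gsr was at -0.022 with batch 1 left out and the block, and -0.92 to 1.21 with 1 library left out. Taldo1 was at 0.29 with library totals alone, 0.094 in limma-voom, 0.084 with quality weights, 0.058 with batch 1 left out and 0.066 with the block as well, and -0.68 to 0.64 with 1 library left out. Gpx1 was at 0.12 with library totals alone and -0.52 to 0.22 with 1 library left out. Txn1 was at -0.025 with batch 1 left out, -0.021 with the block as well, and -0.16 to 0.40 with 1 library left out. Of the other members 13 turned, among them Gss at 0.99 as reported (-0.31 with batch 1 left out), Prdx5 at 0.53 (-0.87), Gclm at -1.14 (0.15), and Txn2 at 0.30 and Gclc at 0.43 (-1.06 and -0.89 with the block). The cause of these moves was not tested. The zeros of batch 1 and counts under 100 in many members limit the precision.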
